A study of Rattus norvegicus with 15 samples.

Results

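Genes of myoblast fusion and cell adhesion were followed across 15 cultures of H9c2, a wild-type myoblast line derived from embryonic rat heart. The genes were listed by name, for their known roles, with earlier results of these data known. Of 9 listed genes, 8 were found among the 11574 genes of the count table, namely Mymk, Mymx, Cdh15, Ncam1, Alcam, Adam12, Myof and Dysf, and the remaining gene, Cdh2, was not analysed here. The cultures formed 5 groups of 3. T0 was harvested after a day of attachment in serum-rich medium, before differentiation began. T7-RA and T14-RA were kept in low serum without retinoic acid (RA) for 7 and 14 days. T7+RA and T14+RA were kept in the same low serum for 7 and 14 days with all-trans RA, the ligand of the retinoic acid receptors, added daily at 1 µM. Whether the cultures without RA received the DMSO in which RA was dissolved is not stated, so all RA comparisons are of RA as it was added. All groups were grown from the same line, and the cultures are described as biological replicates.

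Skeletal muscle fibres form when single myoblasts stop dividing, adhere to each other and merge their membranes. Myomaker (Mymk) is a membrane protein of many spans that brings the outer membrane leaflets together, and the micropeptide myomixer (Mymx) completes the opening of the fusion pore. Before fusion, cells are held together by M-cadherin (Cdh15) and by immunoglobulin-type adhesion receptors such as Ncam1 and Alcam. Adam12 is a membrane metalloprotease of fusing myoblasts, and the ferlins myoferlin (Myof) and dysferlin (Dysf) are calcium-sensitive membrane proteins, of which Myof acts in myoblast fusion and Dysf in the repair of the muscle fibre membrane.

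The libraries held between 508397 and 1030820 counts each, and the median gene had 22 counts in a library. All members but Mymx had at least 10 counts in every library, which 5931 of the 11574 genes reached. Levels are given as CPM, the counts of a gene per 1000000 counts of its library, with library sizes adjusted by the TMM factors of edgeR. Changes are on the log2 scale with their standard error (SE), and a change was called at a Benjamini-Hochberg adjusted p under 0.001, or under 0.05 for the difference of the RA change between days. Skeletal muscle differentiation was followed on a list of 13 genes, of which 10 were measured. Their summed level was 377.3 to 414.6 CPM at T0, 3804 to 4536 after 7 days without RA and 15160 to 15640 after 14 days. With RA it was 1866 to 2322 CPM at day 7 and 6055 to 7117 at day 14. The tissue label names heart muscle, and of 11 cardiac muscle genes 4 were measured, with a summed level of 78.6 to 88.0 CPM at T0, 948 to 1080 in T14-RA and 649 to 748 in T14+RA. Nkx2-5, Tbx5, Myh6, Tnni3, Nppa, Nppb and Myl7 were not among the 11574 genes of the count table. Smooth muscle markers, all 5 measured, summed to 15550 to 17040 CPM at T0 , to 3471 to 3590 in T14-RA and to 4052 to 4836 in T14+RA. Fibroblast markers, 4 of 8 measured, summed to 25680 to 38480 CPM at T0, 20750 to 20880 in T14-RA and 18320 to 23290 in T14+RA. Most of that sum was Col1a1, and the other fibroblast markers moved in opposite directions. Dcn and Lum had 0 counts at T0 and means of 50.5 and 28.5 CPM in T14-RA, while Postn fell at T14 (log2 -1.35). With RA, Postn (log2 -5.46, edgeR adjusted p = 1.18e-30), Lum (-1.88), the cardiac actin Actc1 (-2.73) and the smooth muscle gene Smtn (-1.03) fell and Dcn (1.08) rose. The other smooth muscle genes had no call in the RA term (Tagln 0.16, Cnn1 0.20, Acta2 0.27, Myh11 -0.26). At day 14 alone Acta2 was higher with RA (0.39, edgeR adjusted p = 0.000935). Endothelial markers, 2 of 6 measured, summed to 25.2 to 48.3 CPM at T0 and 9.61 to 20.3 in T14-RA, with no call at T14 or with RA. Schwann and neural markers, 2 of 5 measured, summed to 18.8 to 31.4 CPM at T0 and 8.47 to 10.8 in T14-RA, and Tubb3 fell at T14 (log2 -2.03, edgeR adjusted p = 5.11e-05). The part of these marker changes in the results below was not tested. In bulk RNA, fewer cells of a type and less RNA per cell cannot be told apart.

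The fusogens Mymk and Mymx rose with time without RA, while Cdh15, Alcam, Adam12 and Myof fell. T0 was in serum-rich medium and all later groups in low serum, so comparisons with T0 cannot tell time from serum. In the additive model, which has a T7, a T14 and an RA term, the T7 and T14 terms are changes from T0 at equal RA, and the RA term averages the effect of RA over day 7 and day 14. At day 7, 3 of the 8 members were called (2 higher, 1 lower), beside 8.73% of all genes (4.29% higher, 4.44% lower). At day 14, 6 were called (2 higher, 4 lower), beside 17.3% of all genes (8.47% higher, 8.85% lower). With RA, 5 were called (3 higher, 2 lower), beside 6.39% (3.33% higher, 3.07% lower). The median change of the members was -0.37, -0.65 and -0.11 for T7, T14 and RA, and the medians over all genes were 0.02, 0.05 and -0.01.

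**Figure D1:**
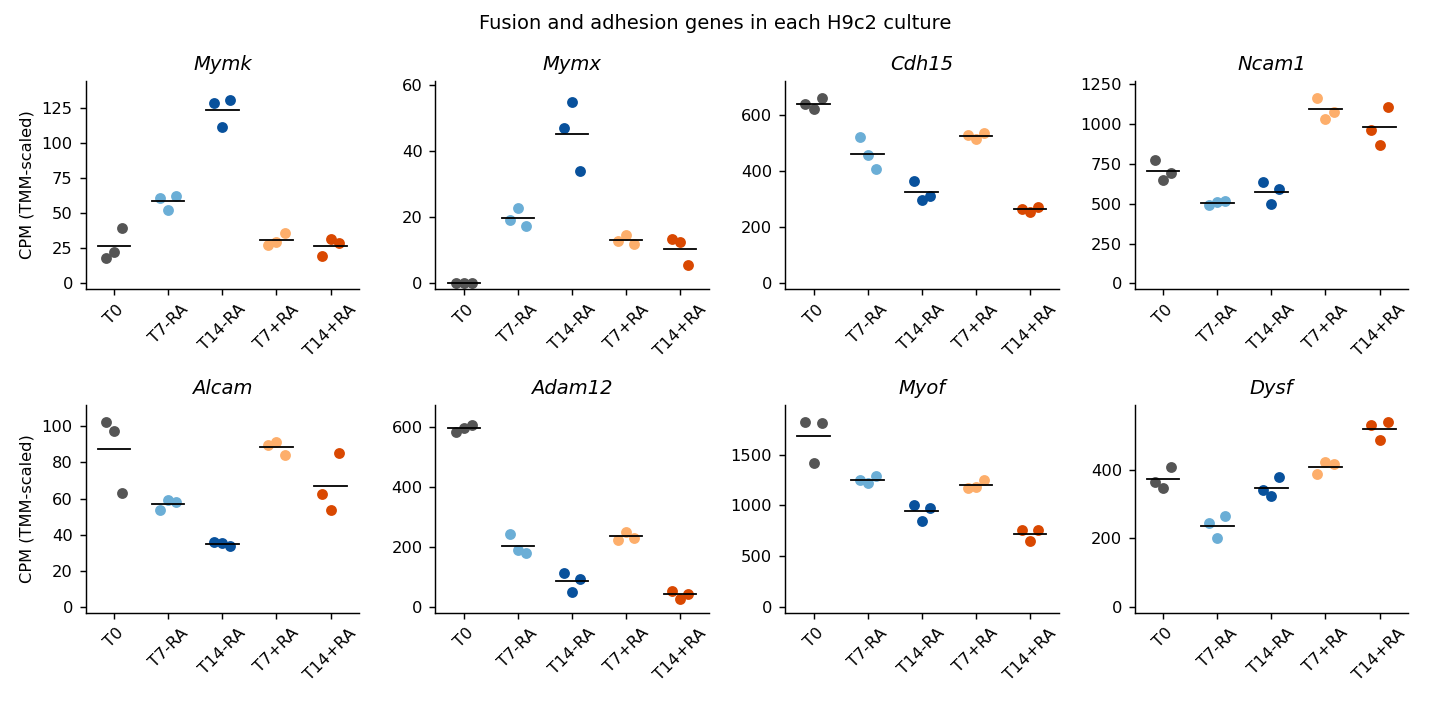
Level of each member in CPM (vertical axis, 1 panel per gene) in the 15 cultures, with points for single cultures, their group on the horizontal axis and bars for the group means. Mymk and Mymx are highest in T14-RA, Adam12 falls with time in both media, and Ncam1 and Dysf lie higher with RA at both days.

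Mymk (ENSRNOG00000006142, band 3p12) rose with time in the cultures without RA. At T0 it stood at 17.93, 22.51 and 39.83 CPM. Without RA it was 60.84, 52.41 and 62.45 CPM at day 7 and 128.5, 111.6 and 130.4 CPM at day 14. With RA it was 27.08, 29.53 and 35.99 CPM at day 7 and 19.29, 31.43 and 29.01 CPM at day 14. All 6 cultures without RA lay above every culture of T0 and every culture with RA, and all 6 cultures with RA lay within the range of T0. Between T0 and T14-RA, Mymk rose 4.83-fold (log2 2.27, SE 0.233, edgeR adjusted p = 1.57e-12). Between T0 and T14+RA the log2 difference was -0.01 with a 95% interval from -0.613 to 0.599 (edgeR adjusted p = 0.989). This comparison and that of T7+RA with T0, where the log2 difference was 0.26 (edgeR adjusted p = 0.578), were added after the data were seen. Without RA, Mymk rose again during the second week by 2.11-fold (log2 1.08, SE 0.187, edgeR adjusted p = 1.76e-05). With RA the second-week change was -0.27 (SE 0.282, edgeR adjusted p = 0.658) and the day 7 and day 14 cultures overlapped. The RA term of Mymk was -1.67 (SE 0.186, edgeR adjusted p = 5.74e-10). The T7 term of 1.43 (SE 0.282, edgeR adjusted p = 0.000112) was lost without T0 replicate 1 or T0 replicate 2, where it was between 1.17 and 1.36 with adjusted p between 0.00114 and 0.00615.

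Mymx (ENSRNOG00000042497, band 9q12) went from no counts at T0 to at most 39 in a library. In each T0 culture it had 0 counts among the 1829037 counts of the group, which allows a level of up to 1.73 CPM (3 counts over the group, counting error only). Without RA it had 16, 17 and 12 counts at day 7 and 39, 31 and 20 at day 14, or 46.85, 54.91 and 33.87 CPM at day 14. With RA it had 9, 11 and 7 counts at day 7 and 14, 8 and 3 at day 14, the latter being 13.50, 12.57 and 5.44 CPM. Every culture of the 4 differentiated groups had Mymx counts and the highest were the 3 of T14-RA. Set against the limit of T0, the pooled Mymx level was 11.5-fold higher in T7-RA, 26.2-fold in T14-RA, 7.69-fold in T7+RA and 6.5-fold in T14+RA. These folds leave out the counting error of the later groups. The T7 and T14 terms were called (edgeR adjusted p = 4.38e-08 and 4.14e-11), and their fitted folds are not given because they depend on the zero counts at T0. The RA term was called at -1.38 (SE 0.258, edgeR adjusted p = 4.44e-05). From day 7 to day 14 Mymx differed by 1.18 without RA (SE 0.291, edgeR adjusted p = 0.00374) and by -0.25 with RA (SE 0.414, edgeR adjusted p = 0.801), neither of them called. Mymk thus stayed within its T0 range with RA, whereas Mymx was above its T0 limit in all 4 later groups.

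The 300 bases around the start of Mymx, Cdh15 and Myof are shown because they are the members whose window holds CANNTG, the E-box hexamer that myogenic basic helix-loop-helix factors such as Myog and Myod1 are known to bind. Sequences come from RefSeq on build GRCr8, run 5′ to 3′ on the gene's strand from 250 bases before to 50 after the start, and carry each CANNTG in capitals. The counts themselves were mapped to build Rnor_6.0. Mymx lies at chr9:22894274-22894573 on the plus strand, the first of 3 overlapping windows in the table. Cdh15 lies at chr19:67814407-67814706 on the plus strand and Myof at chr1:245234719-245235018 on the minus strand.
Mymx: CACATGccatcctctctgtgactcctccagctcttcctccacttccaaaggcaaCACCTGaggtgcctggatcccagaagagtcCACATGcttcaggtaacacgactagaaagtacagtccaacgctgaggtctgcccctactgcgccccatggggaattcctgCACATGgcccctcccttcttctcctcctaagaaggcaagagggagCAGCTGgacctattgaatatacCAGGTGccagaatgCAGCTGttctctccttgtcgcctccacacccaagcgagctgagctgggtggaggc
Cdh15: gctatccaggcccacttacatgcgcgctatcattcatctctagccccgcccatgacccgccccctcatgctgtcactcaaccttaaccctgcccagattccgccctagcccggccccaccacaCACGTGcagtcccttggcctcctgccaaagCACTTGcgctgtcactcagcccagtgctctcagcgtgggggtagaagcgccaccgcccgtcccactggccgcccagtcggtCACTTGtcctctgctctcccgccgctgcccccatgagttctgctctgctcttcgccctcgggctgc
Myof: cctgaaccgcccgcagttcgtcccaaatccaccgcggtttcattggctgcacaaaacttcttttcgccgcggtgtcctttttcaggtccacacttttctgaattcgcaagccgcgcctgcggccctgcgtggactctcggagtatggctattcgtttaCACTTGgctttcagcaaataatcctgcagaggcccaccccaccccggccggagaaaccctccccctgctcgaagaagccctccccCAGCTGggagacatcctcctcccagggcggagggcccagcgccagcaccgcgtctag
The Mymx window shown held 7 CANNTG hexamers, a number reached by 0.152% of 33469 RefSeq windows of this length, and 2 of them were CAGCTG, at -41 and -5 from the start. The other 2 Mymx windows, which begin further downstream, held 5 CANNTG each, a number reached by 1.77% of windows, and the same CAGCTG pair then lies at -141 and -105 or at -172 and -136 from their starts. At least 2 CAGCTG were held by 1.69% of all windows. Cdh15 held 3 CANNTG, as did 16.6% of windows or more, and Myof held 2, of which 1 was CAGCTG at -7. The windows of Adam12, Alcam and Dysf held none, while 72.1% of all windows held at least 1. CAGCTG is itself a CANNTG and reads the same on both strands, and it was found in 15.1% of windows. The retinoic acid receptor half-site AGGTCA, searched on both strands, was in no member's window and in 16.2% of all windows. The table had entries for 6 of the 8 members, and Mymk and Ncam1 had none. A match of letters is a description of the sequence and not a site in use.

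Cdh15 (ENSRNOG00000027954, band 19q12), M-cadherin, was among the highest adhesion genes at T0 and fell with time in both media. It stood at 635.9, 619.1 and 658.2 CPM at T0. Its levels without RA were 518.9, 456.9 and 405.2 CPM at day 7 and 364.0, 295.8 and 311.6 CPM at day 14. Its levels with RA were 528.8, 512.8 and 534.8 CPM at day 7 and 264.3, 254.6 and 271.9 CPM at day 14. The day 14 cultures were all below the day 7 cultures, which were all below T0. The T14 term was -1.10 (SE 0.112, edgeR adjusted p = 3.5e-12). The RA term was -0.04 (SE 0.087, edgeR adjusted p = 0.863). During the second week Cdh15 fell 1.99-fold with RA (log2 -0.99, SE 0.109, edgeR adjusted p = 1.03e-10). Without RA it fell 1.42-fold (log2 -0.50, SE 0.108, edgeR adjusted p = 0.000626), a call that was lost in 6 fits that each left out 1 library (T7-RA replicates 1 and 2, T14-RA replicates 2 and 3, T7+RA replicates 1 and 3), with changes between -0.51 and -0.41 and adjusted p between 0.00104 and 0.0305.

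Ncam1 (ENSRNOG00000031890, band 8q23), the neural cell adhesion molecule, was the member raised most by RA relative to its error. At T0 it stood at 778.0, 651.0 and 691.7 CPM. Cultures without RA had 492.7, 509.3 and 515.6 CPM at day 7 and 634.2, 501.2 and 596.1 CPM at day 14. Cultures with RA had 1166, 1035 and 1080 CPM at day 7 and 965.6, 872.2 and 1106 CPM at day 14. The 6 cultures with RA lay above all 9 others. The RA term was 0.94 (SE 0.0807, edgeR adjusted p = 1.83e-14). Set against T0, Ncam1 was lower in T7-RA (log2 -0.49, edgeR adjusted p = 0.000215) and higher in T7+RA (log2 0.63, edgeR adjusted p = 9.72e-07) and T14+RA (log2 0.47, SE 0.1, edgeR adjusted p = 0.000111). The lower call at day 7 was lost without T0 replicate 1 or any 1 of the 3 T7-RA cultures, and the T14+RA call without T14+RA replicate 3, where it was 0.38 (edgeR adjusted p = 0.0026). The T14-RA difference from T0 was -0.29 (edgeR adjusted p = 0.0233), short of the threshold.

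Alcam (ENSRNOG00000001989, band 11q21), an immunoglobulin-type receptor that binds itself and CD6, fell with time and was higher with RA. At T0 it stood at 102.1, 97.56 and 62.89 CPM. In the absence of RA it was 53.68, 59.13 and 58.10 CPM at day 7 and 36.03, 35.42 and 33.87 CPM at day 14. In its presence it was 89.80, 91.28 and 83.99 CPM at day 7 and 62.70, 53.43 and 85.20 CPM at day 14. Within each day every culture with RA lay above every culture without it. The T14 term was -1.24 (SE 0.198, edgeR adjusted p = 7.24e-07) and the RA term 0.75 (SE 0.147, edgeR adjusted p = 8.32e-05). The lowest T0 culture was replicate 3, and the T7 term of -0.71 (edgeR adjusted p = 0.00329) was called only without it, at -0.87 (edgeR adjusted p = 0.000494). Between T0 and T14-RA Alcam fell 2.53-fold (log2 -1.34, edgeR adjusted p = 1.24e-06), and between T0 and T14+RA the difference was -0.43 (edgeR adjusted p = 0.0711).

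Adam12 (ENSRNOG00000018384, band 1q41) showed the largest fall of the 8 members. At T0 it stood at 582.1, 596.6 and 605.8 CPM. Cultures without RA had 243.3, 189.5 and 178.6 CPM at day 7 and 114.1, 51.36 and 94.83 CPM at day 14. Cultures with RA had 223.8, 251.0 and 229.7 CPM at day 7 and 53.05, 28.29 and 45.32 CPM at day 14. The cultures of T0, day 7 and day 14 did not overlap in either medium. Adam12 fell 6.63-fold between T0 and T14-RA (log2 -2.73, edgeR adjusted p = 1.11e-19) and 13.6-fold between T0 and T14+RA (log2 -3.76, edgeR adjusted p = 2.29e-23). During the second week it fell 2.29-fold without RA (log2 -1.19, SE 0.169, edgeR adjusted p = 7.77e-07) and 5.36-fold with RA (log2 -2.42, SE 0.188, edgeR adjusted p = 4.91e-14). At day 14 the spread was wide, and the lowest T14-RA culture lay below the highest T14+RA culture. The T7 term of -1.34 (SE 0.244, edgeR adjusted p = 0.00144) missed the threshold in the additive model, in which RA has the same change at both days, while both day 7 groups were called against T0 in the model of group means (log2 -1.54 without RA, edgeR adjusted p = 1.02e-12, and -1.34 with RA, edgeR adjusted p = 3.87e-11). It was called without T14-RA replicate 1 or T14+RA replicate 2, and in DESeq2, limma-voom, limma-trend and after either filter on low counts.

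Both ferlins were lower in T7-RA than at T0, while at day 14 Dysf was higher with RA and Myof was not. Myof (ENSRNOG00000016117, band 1q53) stood at 1820, 1416 and 1811 CPM at T0. Without RA it was 1254, 1219 and 1287 CPM at day 7 and 1007, 846.6 and 973.7 CPM at day 14, and with RA it was 1175, 1181 and 1251 CPM at day 7 and 757.2, 645.9 and 761.4 CPM at day 14. Each day lay below the one before in both media, and at day 14 every culture with RA lay below every culture without it. The T14 term was -0.92 (SE 0.0999, edgeR adjusted p = 3.17e-11) and the RA term -0.22 (SE 0.0776, edgeR adjusted p = 0.0467), short of the threshold. Myof fell 1.66-fold during the second week with RA (log2 -0.73, SE 0.0972, edgeR adjusted p = 2.39e-08), and without RA the change was -0.41 (edgeR adjusted p = 0.00196).

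Dysf (ENSRNOG00000032788, band 4q34) was lowest in T7-RA and highest in T14+RA. At T0 it stood at 362.8, 347.1 and 408.8 CPM. Its levels without RA were 244.5, 201.6 and 265.8 CPM at day 7 and 339.9, 322.3 and 379.3 CPM at day 14. Its levels with RA were 387.7, 421.5 and 414.8 CPM at day 7 and 528.6, 487.2 and 538.4 CPM at day 14. The T14+RA cultures lay above the 12 others and the T7-RA cultures below them. The RA term was 0.68 (SE 0.0832, edgeR adjusted p = 2.58e-09). The T7 term was -0.59 (SE 0.113, edgeR adjusted p = 5.49e-05), and without T0 replicate 3 it was -0.52 (edgeR adjusted p = 0.00128). Dysf rose 1.46-fold in the second week without RA (log2 0.55, SE 0.115, edgeR adjusted p = 0.000464), a call lost in 4 fits (without T7-RA replicate 1 or 2 or T14-RA replicate 1 or 3, adjusted p 0.00304 to 0.0218). With RA the second-week change was 0.35 (SE 0.106, edgeR adjusted p = 0.0205). Against T0, the difference was -0.10 in T14-RA (edgeR adjusted p = 0.545) and 0.48 in T14+RA (SE 0.109, edgeR adjusted p = 0.000257), the latter lost without T0 replicate 1, T14+RA replicate 1 or T14+RA replicate 3.

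Ratios of counts within a library need no scaling between libraries, and were added after the data were seen, as a description. There were 0.199, 0.245 and 0.226 Dysf counts per Myof count at T0, a mean of 0.223 ± 0.0229 (SD, n = 3). The mean without RA was 0.189 ± 0.0212 at day 7 and 0.369 ± 0.0278 at day 14. The mean with RA was 0.340 ± 0.0150 at day 7 and 0.720 ± 0.0302 at day 14. The ratio was higher with RA at both days, with no overlap of cultures, and highest in T14+RA. Ncam1 counts per Cdh15 count were 1.22, 1.05 and 1.05 at T0, with later means of 1.11 (day 7) and 1.78 (day 14) without RA and 2.08 (day 7) and 3.72 (day 14) with it. The T14+RA cultures, at 3.65, 3.43 and 4.07, lay above the 12 others, which reached at most 2.21. Gene lengths differ between the partners, so the ratios compare samples and not the amounts of the 2 transcripts.

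**Figure D2:**
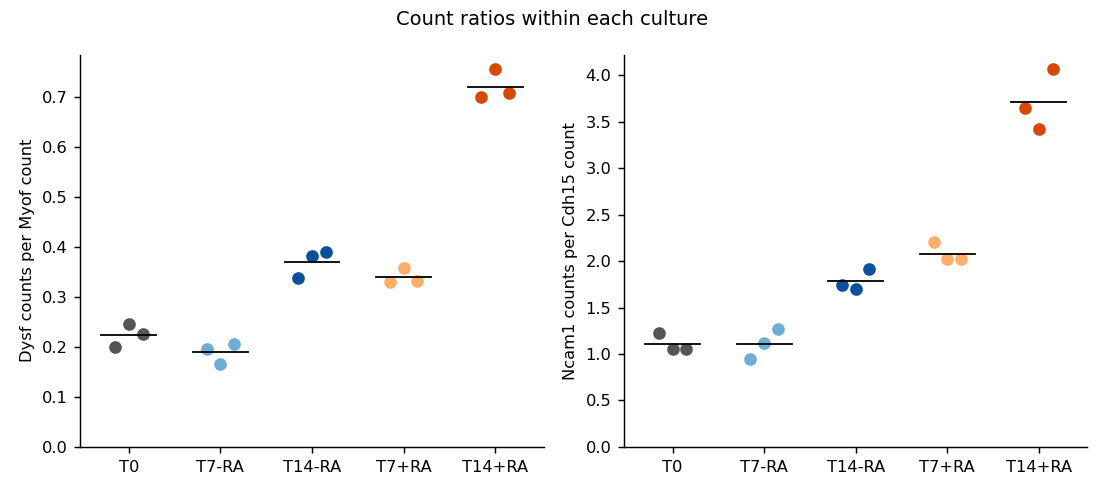
Counts of Dysf per count of Myof and of Ncam1 per count of Cdh15 (vertical axes) in the 15 cultures by group (horizontal axis), with points for cultures and bars for means. Both ratios are highest in T14+RA, at means of 0.720 and 3.72.

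The RA change was then taken at each day in the model of group means. At day 7, 2 members were called (2 higher, 0 lower), beside 3.17% of all genes (1.87% higher, 1.3% lower), and the groups did not overlap for 5 members, beside 24.4% of all genes. Ncam1 was 2.16-fold higher (log2 1.11, SE 0.101, edgeR adjusted p = 6.41e-14) and Dysf 1.72-fold higher (log2 0.78, SE 0.113, edgeR adjusted p = 2.25e-07). Mymk was at -0.93 (95% interval -1.41 to -0.456, edgeR adjusted p = 0.00542) and Alcam at 0.64 (SE 0.192, edgeR adjusted p = 0.0245), both short of the threshold although their cultures did not overlap. Mymx was at -0.57 (SE 0.367, edgeR adjusted p = 0.475), Cdh15 at 0.19, Adam12 at 0.20 and Myof at -0.06.

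At day 14, 5 members were called (2 higher, 3 lower), beside 4.81% of all genes (2.46% higher, 2.35% lower), and the groups did not overlap for 7 members, beside 27.2%. Mymk was 4.85-fold lower with RA (log2 -2.28, SE 0.22, edgeR adjusted p = 5.05e-13) and Mymx 4.01-fold lower (log2 -2.00, SE 0.328, edgeR adjusted p = 3.38e-06). Adam12 was 2.04-fold lower (log2 -1.03, SE 0.22, edgeR adjusted p = 0.000582), with overlapping cultures. That call was lost in 5 fits that left out 1 library (T14-RA replicate 1 or 3, T7+RA replicate 3, T14+RA replicate 2 or 3), with changes between -1.05 and -0.75 and adjusted p between 0.00101 and 0.0445. Ncam1 was 1.69-fold higher (log2 0.76, SE 0.101, edgeR adjusted p = 1.7e-08) and Dysf 1.49-fold higher (log2 0.58, SE 0.108, edgeR adjusted p = 4.36e-05), and the Dysf call was lost without T14-RA replicate 1 or 2 (adjusted p 0.00147 and 0.00143). Alcam at 0.90 (SE 0.225, edgeR adjusted p = 0.00283), Myof at -0.39 (SE 0.0981, edgeR adjusted p = 0.00353) and Cdh15 at -0.31 (SE 0.114, edgeR adjusted p = 0.0729) missed the threshold. Both fusogens were thus lower with RA at day 14, while 1 adhesion receptor and 1 ferlin were higher.

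The difference between the RA changes of both days, tested itself as an interaction at an adjusted p under 0.05, was called for 2 members (0 higher, 2 lower), beside 0.743% of all genes (0.285% higher, 0.458% lower). It was -1.34 for Mymk (SE 0.34, 95% interval -2.02 to -0.665, edgeR adjusted p = 0.0322) and -1.23 for Adam12 (SE 0.263, 95% interval -1.76 to -0.699, edgeR adjusted p = 0.00764), so RA was associated with a lower level at day 14 than at day 7 relative to the cultures without it. The Mymk call lay near the threshold. It was lost in 8 of 15 fits that left out 1 library (T7-RA replicates 1 and 2, T14-RA replicates 1 and 3, all T7+RA replicates and T14+RA replicate 1; -1.43 to -1.09, adjusted p 0.0546 to 0.248), and in DESeq2 (adjusted p = 0.0673) and limma-trend (adjusted p = 0.104). The Adam12 call was lost without T14-RA replicate 1 (-0.96, edgeR adjusted p = 0.143). Limma on quantile-normalized counts called neither Mymk nor Adam12 for the difference. For Mymx the difference was -1.43 with a large error (SE 0.511, edgeR adjusted p = 0.282), and for the remaining members it lay between -0.49 and 0.27.

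**Figure D3:**
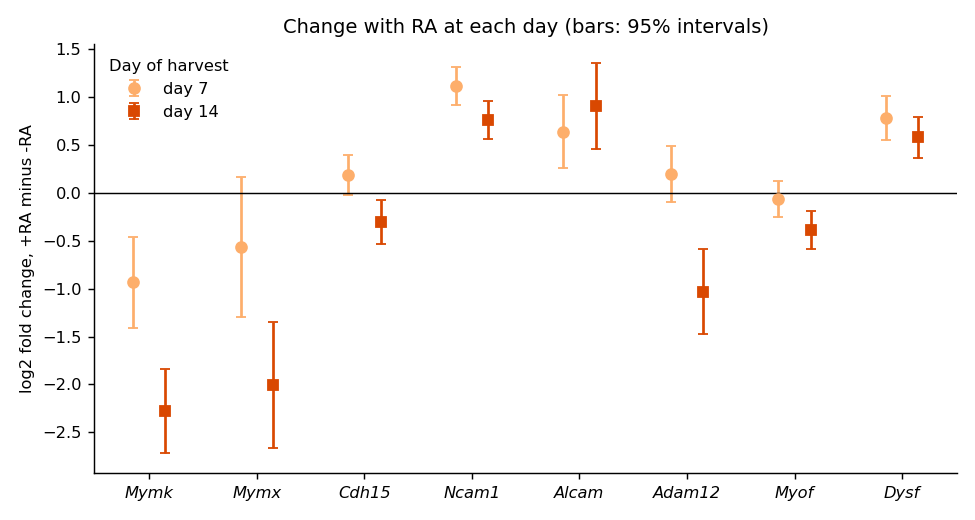
Log2 change with RA at day 7 (circles) and at day 14 (squares) on the vertical axis for each member (horizontal axis), with 95% intervals as bars. All points are filled, whether called or not. Ncam1 and Dysf lie above 0 at both days, Mymk and Mymx lie further below 0 at day 14 than at day 7, and Adam12 is at 0.20 at day 7 and -1.03 at day 14.

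In the second week without RA 4 members were called (2 higher, 2 lower), beside 2.95% of all genes (1.87% higher, 1.09% lower), and the days did not overlap for 7 members, beside 25.7% of all genes. With RA 3 were called (0 higher, 3 lower), beside 4.67% (2.4% higher, 2.26% lower), and the days did not overlap for 4 members, beside 28% of all genes. Mymk and Dysf rose and Cdh15 and Adam12 fell without RA. Cdh15, Adam12 and Myof fell with RA. Whether the second-week changes differ between media is the same contrast as the difference of the RA changes between days, which was called for Mymk and Adam12. Against T0, 7 members were called in T7-RA (2 higher, 5 lower), beside 8.78% of all genes (4.23% higher, 4.54% lower). In that comparison Mymk, Cdh15, Ncam1 and Myof each lost the call in at least 4 fits without 1 library, and Dysf lost it without T7-RA replicate 2. There were 6 calls in T14-RA (2 higher, 4 lower), beside 15.7% (7.83% higher, 7.84% lower). T7+RA had 4 calls (2 higher, 2 lower), beside 10.4% (5.27% higher, 5.14% lower), and T14+RA had 6 (3 higher, 3 lower), beside 19.7% (9.83% higher, 9.9% lower). The cultures did not overlap with T0 for 8 members in T7-RA (beside 33.3% of all genes), 7 in T14-RA (40.6%), 5 in T7+RA (35.3%) and 6 after 14 days with RA (43.5%). The Myof call in T7+RA (log2 -0.49, edgeR adjusted p = 4.32e-05) was lost without T0 replicate 1 or T7+RA replicate 1.

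Levels between genes were compared as CPM per kilobase of the gene length deposited with the counts. At T0, Myof (mean 232.7) and Cdh15 (230.8) stood highest and their cultures overlapped. They were followed by Adam12 (198.5), Ncam1 (166.6) and Dysf (54.97), then by Alcam (30.51) and Mymk (18.87), whose cultures overlapped, and by Mymx with 0 counts. The Adam12 cultures (194.3 to 202.2) overlapped those of Myof (195.9 to 251.7) but not those of Cdh15. In T14-RA the order was Mymx (167.4), Ncam1 (136), Myof (130.3) and Cdh15 (117.2), neighbours that overlapped, then Mymk (87.09), Dysf (51.19), Adam12 (28.96) and Alcam (12.24). In T14+RA it was Ncam1 (231.3), Myof (99.81) and Cdh15 (95.41), of which the last 2 overlapped, then Dysf (76.38), and then Mymx (38.91), Alcam (23.4), Mymk (18.74) and Adam12 (14.09), neighbours that overlapped. Ncam1 was thus the highest member per length only in the groups with RA, although in T14-RA its cultures overlapped those of Mymx. Mymx is listed at 270 bases, so its level per length is less certain than those of the others.

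Across the 15 libraries, which share their culture series and their scaling, log2 CPM profiles were compared between members. Pearson's r was 0.976 between Cdh15 and Adam12, 0.971 between Adam12 and Myof and 0.943 between Cdh15 and Myof. Alcam, which also fell, was less like them, at 0.552 with Cdh15, 0.51 with Adam12 and 0.412 with Myof. It was 0.744 between Mymk and Mymx, 0.798 between Ncam1 and Dysf and -0.89 between Mymk and Alcam. Among 8371 genes with a mean of at least 10 counts, the genes most like each member were taken by the same measure. For Mymk they were Vash2 (0.943), Cilp (0.914) and Peg3 (0.909), and for Mymx Slc29a1 (0.953), Zcchc24 (0.942) and Igf2 (0.940), the insulin-like growth factor of developing muscle. For Cdh15 they were Cited2 (0.979), Iqgap3 (0.971) and Fstl1 (0.967), and for Adam12 Slc7a5 (0.983), Iqgap3 (0.982) and Dpysl3 (0.975). For Myof they included Fbn1 (0.991) and Mki67 (0.976), the proliferation antigen. For Ncam1 they were Akap12 (0.974), Cdv3 (0.971) and Git1 (0.962), for Alcam Adgra3 (0.930), Chfr (0.923) and Plod2 (0.913), and for Dysf Ltbp1 (0.881), Arhgef10l (0.880) and Nkiras2 (0.877). Dysf had the weakest nearest neighbours of the 8.

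Other genes of the same pathways were counted over lists chosen for their function. The medians over all genes were 0.05 at T14 and -0.01 with RA. Of 34 genes of fusion signalling and actin remodelling, 27 were measured, of which 0 rose and 8 fell at T14 and 1 rose and 2 fell with RA (median change -0.49 and -0.03). The called shares were 29.6% at T14, beside 17.3% of all genes, and 11.1% with RA, beside 6.39%. Dock5, a Rac activator, was at -1.34 and talin-1 (Tln1), which links integrins to actin, at -0.99 at T14. The adaptor Bcar1 fell at T14 (-0.83) and rose with RA (1.03, SE 0.0928, edgeR adjusted p = 5.09e-13), while talin-2 (Tln2, -1.02) and vinculin (Vcl, -0.38) fell with RA. Of 28 immunoglobulin-type adhesion receptors, 19 were measured, of which 1 rose and 3 fell at T14 and 5 rose and 2 fell with RA (median change -0.15 and 0.21). The called shares were 21.1% at T14, beside 17.3% of all genes, and 36.8% with RA, beside 6.39%. Vcam1 had 0 counts in all T0 cultures (up to 1.73 CPM), 21, 8 and 9 counts in T14-RA and 23, 15 and 18 in T14+RA. Cadm4 fell at T14 (-2.02), and its RA term of -0.27 was not called (edgeR adjusted p = 0.0467). Mcam fell at T14 (-1.79) and rose with RA (0.97), and the myoblast receptor Kirrel1 did likewise (-0.72 and 0.77). Cxadr rose with RA (1.45), and Igsf8 (-0.78) and Thy1 (-0.49) fell with it. Of the 3 receptors of the list that fell at T14, Mcam and Kirrel1 also rose with RA, as Alcam did, and Cadm4 did not.

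Of 22 other cadherins and catenins, 9 were measured, of which 1 rose and 1 fell at T14 and 0 rose and 2 fell with RA (median change -0.31 and -0.20). The called shares were 22.2% at T14, beside 17.3% of all genes, and 22.2% with RA, beside 6.39%. Arvcf, a catenin of the p120 family, rose at T14 (1.52) and fell with RA (-0.86), Ctnnd1 fell at T14 (-0.78) and Cdh13 fell with RA (-0.79). Of 26 ferlin relatives and membrane repair partners, 20 were measured, of which 5 rose and 5 fell at T14 and 2 rose and 4 fell with RA (median change -0.11 and -0.17). The called shares were 50% at T14, beside 17.3% of all genes, and 30% with RA, beside 6.39%. The repair protein Trim72 (MG53) had 0 counts at T0, 57, 33 and 29 in T14-RA and 62, 33 and 45 in T14+RA. Otof, another ferlin, had 1, 2 and 2 counts at day 7 without RA, 12, 10 and 5 at day 14 without RA, and 0 counts in all cultures of T0, T7+RA and T14+RA, which allows up to 1.73, 1.48 and 1.35 CPM. Bin1, a protein of membrane tubules, rose at T14 (2.00), and S100a11 (-1.39) and Anxa2 (-0.73) fell. With RA, Ehd4 (0.90) and Anxa1 (0.81) rose and Anxa5 (-0.81) and Anxa2 (-0.58) fell. Trim72 and Otof thus both appeared after T0, and of the 2 only Otof was without counts in the cultures with RA.

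Of 22 ADAM proteases and tetraspanins other than Adam12, 18 were measured, of which 3 rose and 3 fell at T14 and 3 rose and 1 fell with RA (median change 0.38 and 0.14). The called shares were 33.3% at T14, beside 17.3% of all genes, and 22.2% with RA, beside 6.39%. Adam19, a close relative of Adam12, fell at T14 (-1.13), and Adam15 rose (0.88). The tetraspanins Cd63 (0.83) and Cd81 (0.64) rose at T14 and Tspan18 (-2.54) and Tspan7 (-0.82) fell. With RA, Tspan18 (0.74), Cd82 (0.58) and Cd81 (0.53) rose and Tspan7 (-0.80) fell. The list therefore held genes that moved with Adam12 and genes that moved against it.

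The skeletal muscle list was counted beside the fusogens. Of its 10 measured genes, 8 rose and 0 fell at T14 (beside 8.47% and 8.85% of all genes), and 0 rose and 6 fell with RA (beside 3.33% and 3.07%). Myod1 and Mef2c were not called at T14, and Ckm, Des, Myod1 and Myog were not called with RA. Myog, the factor that commits myoblasts to differentiate, had a mean level of 48.7 CPM at T0. Without RA the mean was 436 CPM at day 7 and 638 at day 14, and in the cultures with RA 316 and 570. Its RA term was -0.30 (edgeR adjusted p = 0.00501), short of the threshold, while that of Mymk was -1.67 (SE 0.186, edgeR adjusted p = 5.74e-10). The 6 genes lowered by RA were the actinin Actn2 (-1.89), the fast light chain Mylpf (-1.57), embryonic myosin Myh3 (-1.33), the troponin Tnnt3 (-1.16), skeletal actin Acta1 (-0.86) and Mef2c (-0.69). Myod1 had a mean of 115 CPM at T0, of 87.9 and 80.2 without RA and of 148.5 and 65.0 with RA at days 7 and 14. The difference between the RA terms of Myog and Mymk was not tested.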

How the data were processed

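RNA-seq counts of 15 H9c2 cultures, 3 at T0 and 3 at each of both later days with and without RA, were grouped by the sample labels. The labels' cell line field runs on from H9c2 in steps of 1 between libraries, while every title names H9c2. Libraries were made with a stranded mRNA kit. The authors trimmed the reads on the Galaxy platform, mapped them with HISAT2 to Rnor_6.0 and counted them with featureCounts. The deposited counts are not normalized and cover genes whose sum over all libraries exceeds 20 (the smallest was 21). Neither tool versions nor the strand setting used by featureCounts are given in the sources used here, so reads of genes overlapping on opposite strands may not be told apart. The deposited table also gives a length per gene in bases, whose definition is not stated, and it was used here to compare levels between genes.

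Counts were fitted in edgeR 4.0.16 (R 4.3.3) with TMM scaling, robust dispersions (common dispersion 0.00781) and the quasi-likelihood F test over all 11574 genes, with Benjamini-Hochberg adjustment. The additive T7, T14 and RA model follows the study's formula and its threshold of 0.001. A model of 5 group means gave the other contrasts. SE was the absolute change divided by the root of F. Correlations used log2 CPM with a prior count of 2 over genes with a mean of at least 10 counts a library. Floors are 3 counts over a group and cover counting error only, since reads carry no molecular identifiers. The members and the lists were chosen with earlier results of these data known. Genes named from a list are up to 3 called per direction with the largest change, and the 3 nearest profiles per member. A result for 1 gene chosen by this rule is not reported here. Promoters and motif counts came from RefSeq (GRCr8). The scripts were tested on simulated data. Alternatives were an adjusted p of 0.05 (0.001 for the difference), leaving out each library in turn, a block for the replicate number, a prior count of 0.5, scaling by relative log expression or by library size only, a minimum of 10 counts in every library, the filterByExpr function of edgeR, DESeq2 1.42.0, and limma 3.58.1 in its trend and voom forms and on quantile-normalized counts. The closest pair of replicate libraries differed by a chi-square of 1.07 per gene (chi-square p = 2.31e-07 over 9918 genes), more than counting error, and all 15 were kept. That test cannot tell separate cultures from libraries made of the same culture. P-values measure the spread between these cultures, with dispersions shared in part over all genes.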

Additional observations from a re-analysis of the deposited data

Results flagged for a closer look

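The RA change of Mymk differed between the days by -1.34 on the log2 scale, from -0.93 at day 7 to -2.28 at day 14, in a test of the difference itself (edgeR adjusted p = 0.0322, n = 3 cultures a group). The call was lost in 8 of 15 fits that left out 1 library. Without RA all 3 cultures of day 14 lay above all 3 of day 7, and with RA the days overlapped.

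The RA change of Adam12 differed by -1.23, from 0.20 at day 7 to -1.03 at day 14, in the same test (edgeR adjusted p = 0.00764). This call was lost without T14-RA replicate 1. The T14-RA cultures of Adam12 spread from 51.36 to 114.1 CPM. Groups of 3 were not searched for outlying cultures.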

How the results depend on the processing

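The number of members called was within 1.5 times the value in the report except as follows. At an adjusted p under 0.05 it was 8 for T7, 4 for RA at day 7 and 7 for the second week without RA, and at 0.001 it was 0 for the difference between days. Limma on quantile-normalized counts called 1 at T7, 2 with RA, 0 with RA at day 7, 2 with RA at day 14, 0 for the difference and 0 in the second week without RA. The difference had 1 call in DESeq2 and 1 in limma-trend, which also called 1 in the second week without RA. The causes were not tested. Against T0, T7-RA had 4 calls with library size only and 1 with quantile normalization, and library size only moved the median of all genes to 0.13 at T7, 0.15 at T14 and -0.03 with RA.

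Values near 0 changed sign without a call. The difference of Dysf between T14-RA and T0 was 0.0373 with quantile normalization and 0.00379 with library size only. That of Alcam between T7+RA and T0 was 0.0112 in limma-voom, 0.0429 in limma-trend, 0.0466 with quantile normalization, 0.0697 with library size only and 0.0241 with at least 10 counts in every library. That of Mymk between T14+RA and T0 was 0.0235 in limma-voom, 0.0345 in limma-trend, 0.078 with library size only, 0.0382 with at least 10 counts and 0.00144 with the replicate block.

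Without 1 library at a time, calls ranged from 2 to 4 for T7, 3 to 6 for RA at day 14, 0 to 2 for the difference (0 without T14-RA replicate 1), 2 to 5 for the second week without RA, 3 to 7 for T7-RA, 3 to 4 for T7+RA and 4 to 6 for T14+RA against T0. They stayed at 6 for T14 and T14-RA against T0, 5 for RA, 2 for RA at day 7 and 3 for the second week with RA. Uncalled changes that crossed 0 were Cdh15 with RA (-0.0988 to 0.0391), Alcam in T7+RA against T0 (-0.171 to 0.139) and Mymk in T14+RA against T0 (-0.26 to 0.357).

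The main models took the cultures as unpaired, and weak correlations could not decide whether equal replicate numbers pair them. The mean correlation of deviations was 0.0321 over 30 same-numbered pairs (at most 0.186) and -0.016 over 60 others (at most 0.0837). With the numbers as a block, Myof was also called with RA at day 14 (-0.386, edgeR adjusted p = 0.000477) and in the second week without RA (-0.413, edgeR adjusted p = 0.000143). Over all genes the block called 1083 at T7, 2088 at T14, 797 with RA, 429 and 628 with RA at days 7 and 14 and 118 for the difference. Without the block these were 1010, 2004, 740, 367, 557 and 86. The filter of at least 10 counts left out Mymx, and DESeq2 gave no adjusted p for Mymx at T7. With a prior count of 0.5, 2 of 3 nearest profiles were shared for Mymk, Mymx and Myof and 3 of 3 for the others. Depth limits Mymx most, with at most 39 counts in a library.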
